A study of Mus musculus with 12 samples.

Results

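The 10 genes described here belong to the Bcl2 family: Mcl1, Bcl2, Bcl2l1, Bcl2l11, Bax, Bak1, Bbc3, Pmaip1, Bid and Bad. They were chosen by symbol from a fixed list, and all 10 were found among the 34547 genes summed from the transcript files and in the table of regularized log2 (rlog) values. The data are 12 RNA-seq libraries of mouse thymic epithelial cells (TEC), 3 each of cortical TEC (cTEC) from wild-type (WT) mice, cTEC from Aβ0/0 mice, medullary TEC (mTEC) from WT mice and mTEC from Aβ0/0 mice. In Aβ0/0 mice the gene of the MHC class II β chain, H2-Ab1, is disrupted in every cell, so that its absence from TEC cannot be told apart from the loss of most CD4+ T cells known in these mice. The WT mice were C57BL/6 mice purchased apart from the Aβ0/0 mice. Each library came from a pool of 5 to 10 mice of 4 to 6 weeks, from which Epcam+CD45- cells were sorted as Ly51+UEA1- (cTEC) or Ly51-UEA1+ (mTEC), and the cTEC and mTEC libraries with the same genotype and replicate number were taken as sorted from 1 pool, since the study lists both yields under 1 replicate number.

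Proteins of the Bcl2 family decide whether the outer mitochondrial membrane is opened, which releases cytochrome c and commits a cell to apoptosis. Bax and Bak1 form the pores, the pro-survival proteins Mcl1, Bcl2 and Bcl2l1 (Bcl-xL) hold them in check, and the BH3-only proteins Bcl2l11 (Bim), Bbc3 (Puma), Pmaip1 (Noxa), Bid and Bad neutralise the pro-survival proteins or, for some of them, activate Bax and Bak1 directly. Mature mTEC are short-lived cells that turn over by apoptosis, and Mcl1 is known as a survival factor on which TEC depend.

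What the family shares is the BH3 segment, a short helix that fits into a groove of the pro-survival proteins. Its core is shown because binding between the members runs through it, for all of the genes except Pmaip1, which was not searched. The translated coding sequence was searched for leucine, any 3 residues, then glycine, alanine or serine, then aspartate, then glutamate, aspartate or glycine. The pattern was found once in each of the 9 genes, and it is not specific to the family, since it occurs in the longest coding sequence of 1884 of 21866 mouse protein-coding genes (8.62%). The sequences below are 27 bases each, 5′ to 3′ on the coding strand, from the GENCODE M21 transcripts (GRCm38). Capitals mark the codon of the leucine and the codons of the small residue and the aspartate.
Mcl1: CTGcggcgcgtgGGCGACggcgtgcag
Bcl2: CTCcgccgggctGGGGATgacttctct
Bcl2l1: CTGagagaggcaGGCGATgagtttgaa
Bax: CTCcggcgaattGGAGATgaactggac
Bak1: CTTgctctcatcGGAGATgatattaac
Bcl2l11: CTGcggcggatcGGAGACgagttcaac
Bbc3: CTGcggcggatgGCGGACgacctcaac
Bid: CTCgcccaaataGGCGATgagatggac
Bad: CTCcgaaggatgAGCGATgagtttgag
The residue before the aspartate is glycine in 7 of them, alanine in Bbc3 and serine in Bad. All 9 segments lie in coding exons. They are in exon 1 of Mcl1 (chr3:95659436-95659462, plus strand) and of Bcl2 (chr1:106712575-106712601, minus strand), exon 2 of Bcl2l1 (chr2:152829697-152829723, minus strand), and exon 3 of Bcl2l11 (chr2:128147150-128147176, plus strand), Bax (chr7:45465997-45466023, minus strand), Bbc3 (chr7:16313773-16313799, plus strand) and Bad (chr19:6950792-6950818, plus strand). Those of Bak1 (chr17:27022531-27022557, minus strand) and Bid (chr6:120897289-120897315, minus strand) are in exon 4.

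The libraries held 21.7 to 36.1 M estimated counts. H2-Ab1 was at 6503 to 10032 CPM in WT cTEC, 2157 to 3714 in Aβ0/0 cTEC, 9027 to 11193 in WT mTEC and 1899 to 3851 in Aβ0/0 mTEC, so the disrupted gene was lower in every Aβ0/0 library but its transcript was still counted. CPM are counts scaled to a common library total, with TMM factors over all 12 libraries. The summed level of 6 cTEC markers was 5094 to 13807 CPM in cTEC and 354 to 811 CPM in mTEC, and that of 6 mTEC markers was 833 to 1116 CPM in cTEC and 2130 to 2789 CPM in mTEC. In cTEC most of the mTEC marker sum was Krt14, at 820 to 1088 CPM. Aire, Fezf2, Cd80, Tnfrsf11a and Cldn4 were at most 13.8 CPM in any cTEC library. The summed level of 12 thymocyte markers was 368 to 649 CPM in WT cTEC, 727 to 1130 in Aβ0/0 cTEC, 90.9 to 209 in WT mTEC and 57.2 to 172 in Aβ0/0 mTEC, with none of the 12 at 0 throughout a group. Of 5 fibroblast markers, Dcn (2091 to 2587 CPM in WT cTEC and 109 to 184 CPM in WT mTEC) and Lum (33.2 to 55.3 and 4.4 to 14.0 CPM) were higher in WT cTEC without overlap, whereas Col1a1, Pdgfra and Pdgfrb overlapped. In bulk samples, fewer cells of a type and less RNA per cell cannot be told apart. A pair of libraries weighed on many results: WT cTEC replicate 3, and Aβ0/0 mTEC replicate 1.

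Per length, the effector gene Bax was the most abundant of the 10 in all 4 groups. In TPM, a transcript level per length and per library total, it was 153 ± 22.4 (SD, n = 3) in WT cTEC, 155 ± 12.8 in Aβ0/0 cTEC, 241 ± 8.16 in WT mTEC and 213 ± 17.2 in Aβ0/0 mTEC, and its libraries did not overlap with those of the next gene in any group. Bad and Mcl1 followed, between 68.7 and 98.7 TPM on average, and their ranges overlapped in every group. Bcl2l1 came next, or after Bcl2 in Aβ0/0 cTEC, between 41.4 and 54.7 TPM on average. The other effector, Bak1, was among the lowest, at 0.640 to 5.98 TPM over the 12 libraries, with 27 to 284 estimated counts per library.

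**Figure D1:**
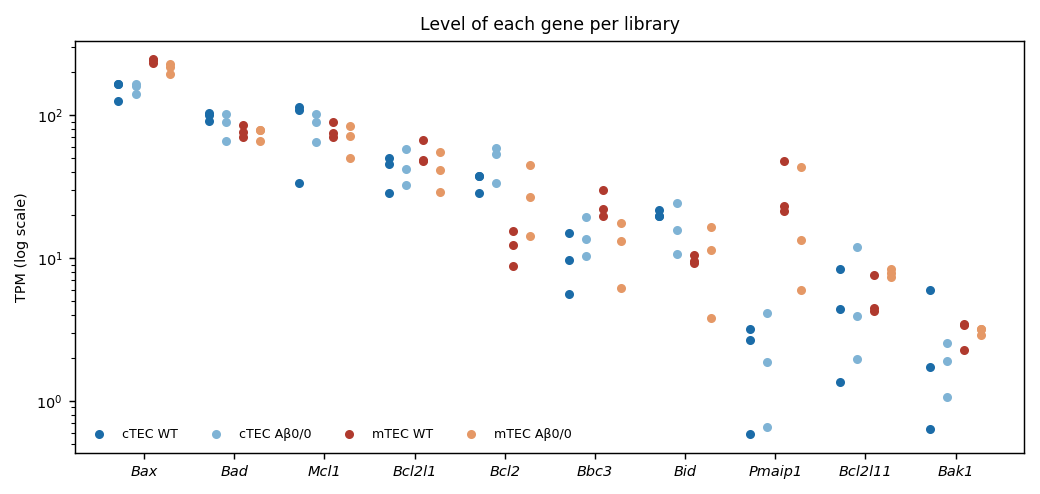
TPM (log axis) of the 10 genes in each of the 12 libraries, coloured by group, with the genes ordered by their mean over the 4 groups. Bax lies above all other genes in every group, and Pmaip1 spans the widest distance between cTEC (0.586 to 4.14 TPM) and mTEC (6.02 to 47.7 TPM).

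The order of the less abundant genes differed between subsets. In WT cTEC, Bcl2 (34.6 ± 5.16 TPM) stood above Bid (20.3 ± 1.19 TPM), which stood above Bbc3 (10.1 ± 4.71 TPM), without overlap at either step, while Bbc3, Bcl2l11 (4.73 ± 3.56 TPM), Bak1 (2.79 ± 2.82 TPM) and Pmaip1 (2.14 ± 1.37 TPM) overlapped with their neighbours. In WT mTEC, Pmaip1 (30.8 ± 14.6 TPM) and Bbc3 (24.0 ± 5.47 TPM) overlapped with each other and stood above Bcl2 (12.2 ± 3.38 TPM) and Bid (9.81 ± 0.684 TPM). In Aβ0/0 mTEC, all neighbours from Bad down to Bcl2l11 overlapped, and Bcl2 was at 14.3, 26.7 and 44.7 TPM in replicates 1, 2 and 3.

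The first question was how cTEC and mTEC of WT mice differ in these genes. Of the 10, 2 were higher in mTEC (Pmaip1 and Bbc3) and 2 were lower (Bcl2 and Bid), by edgeR's quasi-likelihood test with an adjusted p under 0.05 over all genes. These 4 of 10 stand against 26.8% of the 18667 genes tested, with 18% higher and 8.81% lower in mTEC, and the median log2 fold change of the 10 was 0.20 against 0.06 for all genes tested. The libraries of the subsets did not overlap for 6 of the 10 genes, against 47% of all genes tested. Bcl2 and Pmaip1 passed under every alternative setting tried, whereas Bbc3 and Bid did not. DESeq2 and limma on the rlog values each called 5 of the 10, these 4 with Bcl2l1 or with Bax, against 32.9% and 32.1% of the genes to which they gave an adjusted p.

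**Figure D2:**
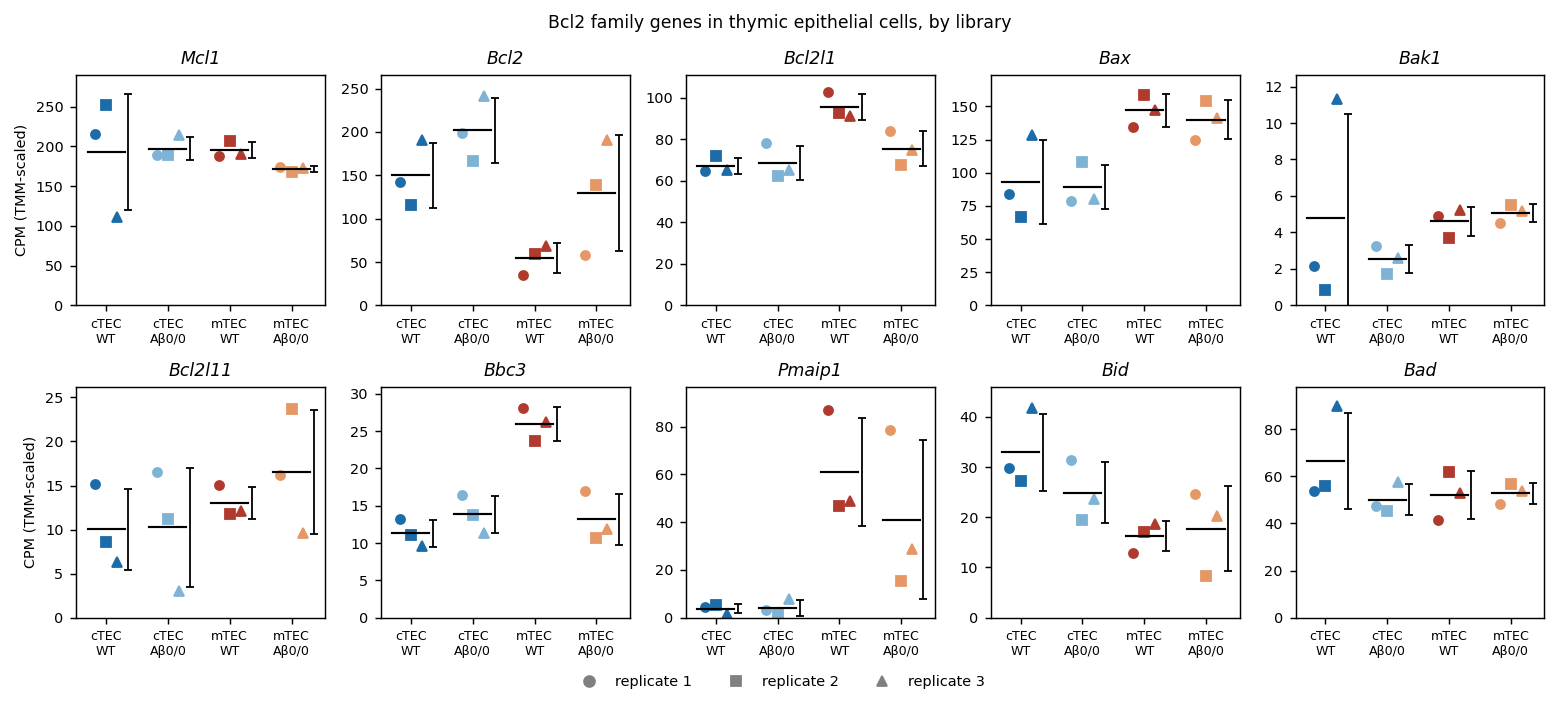
CPM of the 10 genes in each library (linear axes from 0, 1 panel per gene), with the group mean as a line and the SD as a bar beside it (for Bak1 in WT cTEC the bar runs below 0 and is cut there). Pmaip1 lies at 1.5 to 7.6 CPM in the 6 cTEC libraries and at 15.5 to 86.9 CPM in the 6 mTEC libraries, and Bbc3 lies highest in the 3 WT mTEC libraries.

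Among the pro-survival genes, Bcl2 was 142, 116 and 191 CPM in WT cTEC replicates 1, 2 and 3 and 35.6, 59.2 and 68.8 CPM in WT mTEC. All 3 mTEC libraries were below all 3 cTEC libraries, and the log2 fold change of mTEC over cTEC was -1.46 (SE 0.31, adjusted p = 0.0104). The thymocyte markers were also higher in cTEC than in mTEC, at 649, 553 and 368 CPM in WT cTEC against 90.9, 133 and 209 CPM in WT mTEC, and their part in the Bcl2 difference was not tested. Within WT cTEC, the library with the lowest thymocyte level, replicate 3, had the highest Bcl2, whereas in WT mTEC the library with the highest thymocyte level, also replicate 3, had the highest Bcl2.

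**Figure D3:**
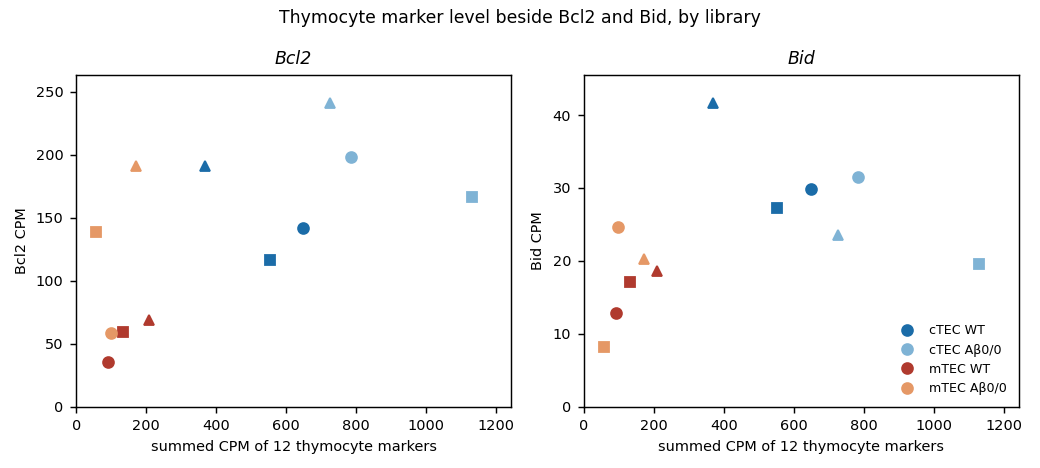
CPM of Bcl2 (left) and Bid (right) against the summed CPM of 12 thymocyte markers in each of the 12 libraries (linear axes from 0, circles, squares and triangles for replicates 1, 2 and 3). Bcl2 lies at 116 to 241 CPM in cTEC and 35.6 to 191 CPM in mTEC, and thymocyte markers lie at 368 to 1130 and 57.2 to 209 CPM. The part of thymocytes in either gene was not tested.

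Bcl2l1 was 64.6, 71.8 and 65.3 CPM in WT cTEC and 103, 92.5 and 91.0 CPM in WT mTEC. The groups did not overlap, but the difference of 0.51 (SE 0.18) did not pass over all genes (adjusted p = 0.0796 by edgeR and 0.0301 by DESeq2). Mcl1 was 216, 252 and 111 CPM in WT cTEC and 189, 207 and 191 CPM in WT mTEC, and the log2 fold change was 0.02 (SE 0.31, adjusted p = 0.974). Here WT cTEC replicate 3 was the lowest of all 12 libraries, and the other 2 WT cTEC libraries were the highest.

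Of the effectors, Bax was 83.6, 66.8 and 128 CPM in WT cTEC and 134, 159 and 148 CPM in WT mTEC. The groups did not overlap, and the log2 fold change of 0.66 (SE 0.27) did not pass (adjusted p = 0.115 by edgeR and 0.0416 by limma on the rlog values). Without WT cTEC replicate 3 it was 0.96 and passed (adjusted p = 0.00615), and the number of the 10 genes called became 5, against 7572 genes called in all. Bak1 was 2.1, 0.8 and 11.3 CPM in WT cTEC and 4.9, 3.7 and 5.2 CPM in WT mTEC. The log2 fold change of Bak1 was -0.05 (SE 0.93, adjusted p = 0.977), and 1.64 without WT cTEC replicate 3 (adjusted p = 0.0852).

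The BH3-only genes differed most among themselves. Pmaip1, a target of p53 whose product binds Mcl1, was 4.5, 5.4 and 1.5 CPM in WT cTEC and 86.9, 46.8 and 48.9 CPM in WT mTEC. Every mTEC library was far above every cTEC library, and the log2 fold change of 4.01 (SE 0.53, adjusted p = 0.00202) was the largest of the 10 genes. In WT cTEC this rested on 37 to 176 estimated counts per library.

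Bbc3, also a p53 target and a binder of all the pro-survival proteins, was 13.2, 11.0 and 9.6 CPM in WT cTEC and 28.1, 23.6 and 26.2 CPM in WT mTEC. The groups did not overlap and each was narrow, with a log2 fold change of 1.21 (SE 0.29, adjusted p = 0.0160). Without WT mTEC replicate 1, 2 or 3 the adjusted p was 0.0850, 0.0558 and 0.0734, and in the fit of all 12 libraries it was 0.0623. The log2 fold changes in these 4 fits were 1.12 to 1.27.

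Bid, which links death receptors to the mitochondria once cleaved by caspase 8, was 29.8, 27.3 and 41.7 CPM in WT cTEC and 12.9, 17.1 and 18.6 CPM in WT mTEC. All mTEC libraries were below all cTEC libraries, with a log2 fold change of -1.02 (SE 0.29, adjusted p = 0.0338). With the pool as a block the adjusted p of Bid was 0.0517, in the fit of all 12 libraries it was 0.135, and without WT cTEC replicate 1 or any 1 WT mTEC replicate it was 0.0549 to 0.107. Bid shares 628 of its 3550 exonic bases (17.7%) with Bcl2l13 on the opposite strand, which was 45.9, 48.5 and 21.3 CPM in WT cTEC and 52.7, 40.1 and 36.6 CPM in WT mTEC, and reads from the shared part cannot be told apart without strand. The thymocyte levels given with Bcl2 apply to Bid as well, and their part in it was not tested.

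Bcl2l11, the BH3-only gene best known for deleting self-reactive thymocytes, was 15.1, 8.6 and 6.3 CPM in WT cTEC and 15.1, 11.8 and 12.1 CPM in WT mTEC (log2 fold change 0.38, SE 0.44, adjusted p = 0.581). Bad, whose product is held inactive by growth factor signalling, was 53.8, 56.0 and 90.1 CPM in WT cTEC and 41.6, 62.0 and 53.1 CPM in WT mTEC (log2 fold change -0.35, SE 0.28, adjusted p = 0.410). Both genes overlapped between the subsets. The spread of Bad in cTEC came mainly from replicate 3, which was also the highest WT cTEC library for Bax, Bak1 and Bid.

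**Figure D4:**
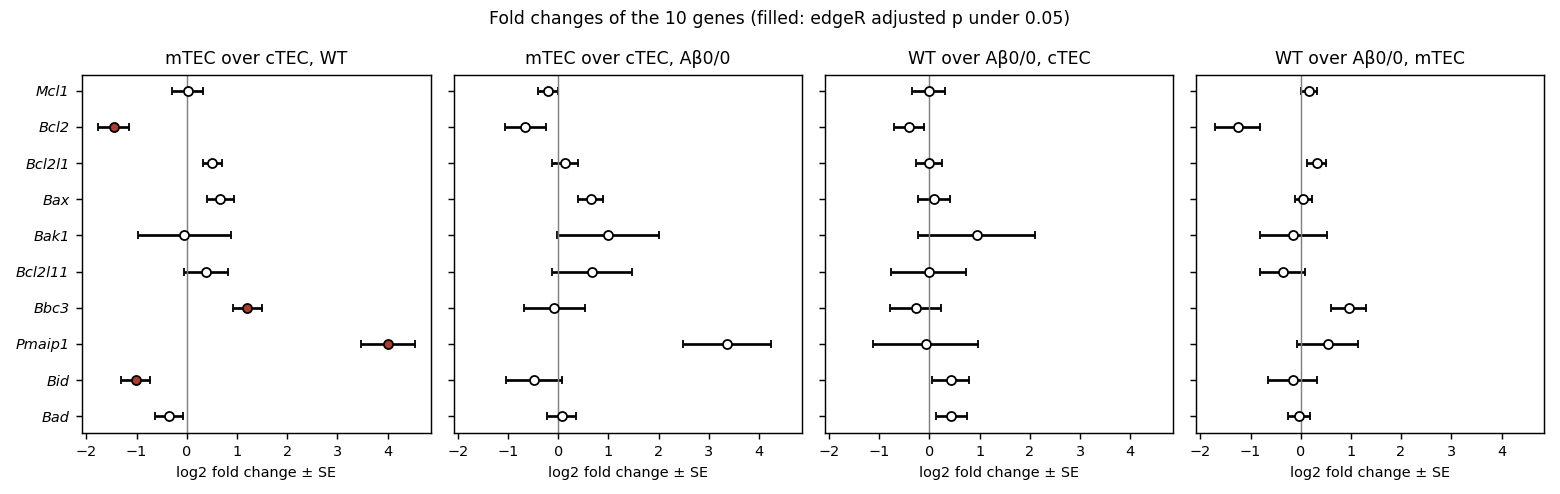
Log2 fold changes with their standard errors for the 10 genes in 4 comparisons, from edgeR on the 6 libraries of each, with filled points where the adjusted p was under 0.05. Filled points appear only for mTEC over cTEC in WT, at 4.01 for Pmaip1, 1.21 for Bbc3, -1.46 for Bcl2 and -1.02 for Bid.

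The same subsets were then compared in Aβ0/0 mice, where edgeR called none of the 10 genes, against 5.6% of the 15687 genes tested. At an unadjusted p under 0.05 there were 2 (Pmaip1 and Bax), against 17.8% of all genes, and DESeq2 called the same 2, against 17.1% of the genes to which it gave an adjusted p. Pmaip1 was 3.0, 1.5 and 7.6 CPM in Aβ0/0 cTEC and 78.7, 15.5 and 28.7 CPM in Aβ0/0 mTEC. The subsets did not overlap, but the mTEC libraries differed from each other by more than 5 times, and the log2 fold change was 3.37 (SE 0.87, adjusted p = 0.0703). Its adjusted p was 0.0176 in the fit of all 12 libraries, 0.00103 by DESeq2 and 0.0470 by limma on the rlog values.

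Bax was 79.0, 108 and 80.1 CPM in Aβ0/0 cTEC and 125, 154 and 141 CPM in Aβ0/0 mTEC, with a log2 fold change of 0.65 (SE 0.25, adjusted p = 0.214 by edgeR and 0.0381 by DESeq2). The size is close to the 0.66 in WT, and the interaction term of Bax was 0.01 (SE 0.36). Bcl2 was 198, 167 and 241 CPM in Aβ0/0 cTEC and 58.4, 139 and 191 CPM in Aβ0/0 mTEC, so that the subsets overlapped (log2 fold change -0.65, SE 0.41, adjusted p = 0.483). Bbc3 was 16.4, 13.7 and 11.4 CPM in Aβ0/0 cTEC and 17.0, 10.6 and 11.8 CPM in Aβ0/0 mTEC, a log2 fold change of -0.07 (SE 0.61, adjusted p = 0.970). Bid was 31.5, 19.5 and 23.6 CPM against 24.7, 8.2 and 20.2 CPM (log2 fold change -0.49, SE 0.56, adjusted p = 0.727). Within each replicate number, Bcl2 and Bid were lower in mTEC than in cTEC. With the pool as a block neither passed by edgeR (adjusted p = 0.294 and 0.545). The number of genes called in all fell from 878 to between 338 and 456 when any 1 library was left out.

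Of the remaining genes in Aβ0/0 mice, Bak1 was 1.7 to 3.3 CPM in cTEC and 4.5 to 5.5 CPM in mTEC, without overlap (log2 fold change 0.99, SE 1.01). Mcl1 was 189 to 214 CPM in cTEC and 168 to 174 CPM in mTEC, also without overlap (log2 fold change -0.20, SE 0.21). These were, with Pmaip1 and Bax, the 4 of 10 genes whose libraries did not overlap, against 28.4% of all genes tested. Bcl2l1, Bcl2l11 and Bad had log2 fold changes of 0.14 (SE 0.26), 0.67 (SE 0.80) and 0.07 (SE 0.28).

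The next question was whether the lack of MHC class II changed these genes in mTEC. Of the 10 genes, edgeR called none between WT and Aβ0/0 mTEC, against 5.66% of the 18636 genes tested, and 2 had an unadjusted p under 0.05, against 15.3%. DESeq2 called 1 of the 10, Bbc3, against 11.1% of the genes to which it gave an adjusted p. The comparison shares its WT mTEC libraries with that of the subsets in WT.

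Bbc3 was 28.1, 23.6 and 26.2 CPM in WT mTEC and 17.0, 10.6 and 11.8 CPM in Aβ0/0 mTEC. The groups did not overlap, and the log2 fold change of WT over Aβ0/0 was 0.96 (SE 0.35, adjusted p = 0.235 by edgeR and 0.0152 by DESeq2). Aβ0/0 mTEC libraries were thus at the level of the cTEC libraries of both genotypes, 9.6 to 16.4 CPM, except for replicate 1 at 17.0. The summed level of 6 granulocyte markers was 500 to 657 CPM in WT and 78.0 to 296 CPM in Aβ0/0 mTEC, without overlap. Of the 6, S100a8 (298 to 370 CPM in WT and 31.7 to 86.4 CPM in Aβ0/0 mTEC), S100a9, Ngp and Camp were lower in Aβ0/0 mTEC without overlap, and S100a8 and Ngp passed by edgeR (adjusted p = 0.0352 for both). Ltf overlapped, at 75.0 to 233 CPM in WT and 21.4 to 244 CPM in Aβ0/0 mTEC, and Elane was at most 0.26 CPM in either. The part of these cells in the genotype differences in mTEC was not tested.

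Bcl2 was 35.6, 59.2 and 68.8 CPM in WT mTEC and 58.4, 139 and 191 CPM in Aβ0/0 mTEC. Replicate 1 of the Aβ0/0 mTEC lay inside the WT range and the other 2 lay above it, with a log2 fold change of -1.26 (SE 0.45, adjusted p = 0.231). Without Aβ0/0 mTEC replicate 1 it was -1.60 and passed (adjusted p = 0.0351), where 2377 genes passed in all instead of 1054. Without any 1 of the WT mTEC libraries no gene passed in all, so that the number of calls in this comparison depended on single libraries. The thymocyte markers were at 90.9 to 209 CPM in WT and 57.2 to 172 CPM in Aβ0/0 mTEC and overlapped. The summed level of the 6 mTEC markers was 2375 to 2789 CPM in WT and 2130 to 2441 CPM in Aβ0/0 mTEC and also overlapped. Within it, Aire (443 to 1003 CPM in WT and 121 to 180 CPM in Aβ0/0 mTEC), Fezf2 (374 to 439 and 215 to 348 CPM) and Cd80 (14.8 to 21.3 and 4.5 to 8.5 CPM) were lower in Aβ0/0 mTEC without overlap, while Tnfrsf11a, Cldn4 and Krt14 overlapped. The summed level of the 6 cTEC markers in mTEC was 655 to 811 CPM in WT and 354 to 574 CPM in Aβ0/0 mice, without overlap. Of these, only Ccl25 (343 to 519 CPM in WT and 134 to 178 CPM in Aβ0/0 mTEC) was lower without overlap. Psmb11, Prss16, Ly75, Enpep and Foxn1 overlapped, and the means of Prss16 and Ly75 were higher in Aβ0/0 mTEC. The part of the mix of mTEC stages in these values was not tested.

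Bcl2l1 was 103, 92.5 and 91.0 CPM in WT mTEC and 84.1, 67.3 and 74.9 CPM in Aβ0/0 mTEC, without overlap (log2 fold change 0.32, SE 0.18, adjusted p = 0.520). Mcl1 was 189, 207 and 191 CPM in WT mTEC and 174, 168 and 173 CPM in Aβ0/0 mTEC, again without overlap and with a small difference (log2 fold change 0.16, SE 0.15, adjusted p = 0.728). With Bbc3 these were 3 of 10 genes whose libraries did not overlap, against 26.6% of all genes tested. Pmaip1 was 86.9, 46.8 and 48.9 CPM in WT and 78.7, 15.5 and 28.7 CPM in Aβ0/0 mTEC, where replicate 1 of each genotype was the highest (log2 fold change 0.53, SE 0.61, adjusted p = 0.790). Without Aβ0/0 mTEC replicate 1 the log2 fold change of Pmaip1 was 1.45 (adjusted p = 0.0877). Bax, Bak1, Bcl2l11, Bid and Bad overlapped between genotypes, with log2 fold changes from -0.36 to 0.05 and adjusted p from 0.813 to 0.975.

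In cTEC, no gene of the 10 was called between genotypes and none had an unadjusted p under 0.05, against 0.0194% called and 2.16% with such a p among 15432 genes tested. DESeq2 called none of them either, against 0.643% of the genes to which it gave an adjusted p. All 10 overlapped between WT and Aβ0/0 cTEC, where 7.64% of all genes did not. The largest differences were those of Bak1 (log2 fold change 0.94, SE 1.17), Bad (0.43, SE 0.31), Bid (0.42, SE 0.37) and Bcl2 (-0.41, SE 0.29). Bak1 turned to -0.75 without WT cTEC replicate 3. Summed thymocyte markers were 368 to 649 CPM in WT and 727 to 1130 CPM in Aβ0/0 cTEC, without overlap. Their part in these differences was not tested. The precision differed widely between the genes, from an SE of 0.26 for Bcl2l1 to 1.17 for Bak1, and a difference of the size of the SE was not detectable with 3 pools a group.

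Whether the genotype difference itself differed between the subsets was tested with an interaction term over all 12 libraries. None of the 10 genes was called, against 0.0103% of 19461 genes tested, and 1, Bbc3, had an unadjusted p under 0.05, against 6.9%. The interaction of Bbc3, the log2 fold change of WT over Aβ0/0 in mTEC minus that in cTEC, was 1.28 (SE 0.55, adjusted p = 0.682 by edgeR and 0.0282 by DESeq2, which called 2.11% of genes). For Bcl2 it was -0.81 (SE 0.55, adjusted p = 0.881), and for Pmaip1 it was 0.66 (SE 1.00). By edgeR, the absence of a call in Aβ0/0 mice for genes called in WT was therefore not shown to be a difference between genotypes, and by DESeq2 the difference passed for Bbc3 and for none of the other members.

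Other genes of the death pathway were read from 6 lists with 66 genes. In WT mice, 19 of the 64 tested were called between mTEC and cTEC, 12 higher and 7 lower in mTEC, which is near the 26.8% of all genes. In Aβ0/0 mice 3 of 63 were called, all higher in mTEC, against 5.6% of all genes. None was called between genotypes in mTEC, in cTEC or by the interaction, where 11 of 64, 0 of 63 and 9 of 64 had an unadjusted p under 0.05, against 15.3%, 2.16% and 6.9% of all genes. DESeq2 called 9 of them between genotypes in mTEC and 13 between subsets in Aβ0/0 mice, against 11.1% and 17.1% of the genes to which it gave an adjusted p.

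Among other members of the Bcl2 family, 7 of 14 tested were higher in WT mTEC than in WT cTEC and none was lower, where 18% of all genes were higher and 8.81% lower. The BH3-only gene Hrk was at 0 to 0.12 CPM in WT cTEC and at 7.1, 6.5 and 3.9 CPM in WT mTEC (adjusted p = 0.00686), and in Aβ0/0 mTEC it was at 0, 2.8 and 0.08 CPM. In the fit of all 12 libraries Hrk did not pass in WT (adjusted p = 0.0617). The pro-survival genes Bcl2a1a and Bcl2a1d followed (adjusted p = 0.00304 and 0.00227). Bcl2a1a, Bcl2a1b and Bcl2a1d are nearly identical copies on chromosome 9 whose reads cannot be assigned with certainty. The 7 of 14 here and the 3 of 63 called in Aβ0/0 mice take them as separate genes. A shared signal can thus count more than once, so the sum of the copies is given. It was 4.6, 16.7 and 4.8 CPM in WT cTEC and 208, 301 and 223 CPM in WT mTEC. In Aβ0/0 mice the sum was 2.8, 6.0 and 2.2 CPM in cTEC and 144, 172 and 135 CPM in mTEC, where Bcl2a1d and Bcl2a1b passed singly with log2 fold changes of 7.98 and 4.99 (adjusted p = 0.00440 and 0.00219). Bcl2a1 genes are also expressed by blood cells, and the summed level of 6 granulocyte markers was 500 to 657 CPM in WT mTEC, 78.0 to 296 in Aβ0/0 mTEC, 13.7 to 341 in WT cTEC and 12.3 to 146 in Aβ0/0 cTEC. That of 8 dendritic and B cell markers was 43.7 to 63.7, 16.6 to 52.2, 28.7 to 47.9 and 70.6 to 105 CPM in the same order. Most of the last was Ptprc, a gene of all leukocytes, at 64.7 to 103 CPM, while the B cell gene Cd79a was 3.6 to 5.6 CPM in WT mTEC and 0 to 0.28 CPM in Aβ0/0 cTEC. The part of such cells was not tested.

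In the list of the p53 family, its regulators and targets, 5 of 13 were called in WT, 1 higher and 4 lower in mTEC, against the 26.8% of all genes. Cdkn1a, the cell cycle inhibitor p21, was 27.1, 38.9 and 26.0 CPM in WT cTEC and 154, 152 and 151 CPM in WT mTEC (log2 fold change 2.32, SE 0.23, adjusted p = 6.5e-04). The other targets of p53 on the list went both ways. Sesn2 was higher in WT mTEC without overlap, at 45.1, 48.7 and 22.7 CPM in WT cTEC and 85.2, 57.1 and 65.8 CPM in WT mTEC, and did not pass (log2 fold change 0.84, SE 0.33, adjusted p = 0.0994). Phlda3 was 287, 275 and 404 CPM in WT cTEC and 109, 167 and 176 CPM in WT mTEC (log2 fold change -1.09, SE 0.27, adjusted p = 0.0206), and Trp53inp1 fell by 0.97 on the log2 scale (SE 0.28, adjusted p = 0.0358). These 3 genes were named after their values were seen. Neither Phlda3 nor Trp53inp1 passed in every fit, with adjusted p of 0.0527 to 0.0662 for Phlda3 without any 1 WT mTEC replicate and 0.105 for Trp53inp1 in the fit of all 12 libraries. Trp53inp1 also did not pass with the pool as a block (0.0529) or with limma on the rlog values (0.0729). Without WT cTEC replicate 1 or 2 or any 1 WT mTEC replicate, its adjusted p was 0.0683 to 0.144. The p53 relatives Trp63, a regulator of epithelial stem cells, and Trp73 were lower in WT mTEC, with log2 fold changes of -2.06 (SE 0.25, adjusted p = 0.00137) and -1.76 (SE 0.35, adjusted p = 0.00784), and Trp73 did not pass in the fit of all 12 libraries (adjusted p = 0.100). Trp53 itself was 97.0 to 167 CPM in WT cTEC and 119 to 172 CPM in WT mTEC.

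Of the 5 inhibitors of apoptosis, 2 were called in WT, against 26.8% of all genes. Birc3 and Birc2, which restrain death receptor signalling, were higher in WT mTEC, with log2 fold changes of 1.47 (SE 0.21, adjusted p = 0.00245) and 0.95 (SE 0.20, adjusted p = 0.00944). Birc3 was also called in Aβ0/0 mice (1.43, SE 0.28, adjusted p = 0.0306), but not with the pool as a block (adjusted p = 0.0597) nor without any 1 library (0.0516 to 0.128). In the death receptor branch, 2 of 8 were called in WT, which is near the share of all genes. The receptor Fas was higher in mTEC (1.57, SE 0.29, adjusted p = 0.00673) and the TNF receptor Tnfrsf1a was lower (-1.26, SE 0.21, adjusted p = 0.00470).

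Of 9 regulators of BH3-only genes and of Mcl1 and Bcl2l11 turnover, 2 were called in WT, both lower in mTEC, which is also near that share. Foxo1 and Foxo3 encode transcription factors known to activate Bcl2l11 and Bbc3. Foxo1 was 157, 196 and 142 CPM in WT cTEC and 44.8, 51.6 and 51.8 CPM in WT mTEC (log2 fold change -1.74, SE 0.21, adjusted p = 0.00138). Foxo3 had a log2 fold change of -1.21 (SE 0.36, adjusted p = 0.0392), which did not pass with the pool as a block (adjusted p = 0.0700) or in the fit of all 12 libraries (0.333). Nor did Foxo3 pass with limma on the rlog values (0.0632) or without any 1 WT mTEC replicate (0.102 to 0.136). Of these targets, Bcl2l11 was not called in this comparison and Bbc3 was higher in mTEC. Regulation of either gene by Foxo1 or Foxo3 was not tested.

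At the level of transcripts, 2 coding transcripts made up Bcl2, of which Bcl2-201 (2 exons) held 52.2% to 75.8% of the TPM of the gene in each library and 64.0% on average, and Bcl2-202 (1 exon) held the rest. Of 9 Bcl2l1 transcripts, Bcl2l1-201 held 43.8% to 79.4% and Bcl2l1-202 held 14.7% to 46.3%. Bax-201 (6 exons) held 58.7% to 80.9% of Bax and a coding transcript with 5 exons held 11.9% to 23.4%. Pmaip1 had 1 transcript. Bid-201 held 71.4% to 100% of Bid, and of Bad, Bad-202 held 66.4%, Bad-204 held 13.4% and Bad-205 held 10.8% on average.

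Several shares varied between the libraries of a group. Mcl1-201 held 81.2% to 100% of Mcl1, and the second transcript, Mcl1-202, held 11.9%, 14.4%, 15.0% and 16.3% in replicate 1 of WT cTEC, Aβ0/0 cTEC, WT mTEC and Aβ0/0 mTEC and 18.8% in replicate 3 of Aβ0/0 mTEC, against at most 4.31% in the other 7 libraries. Bak1 was assigned mainly to Bak1-201, a transcript annotated as subject to nonsense-mediated decay (89.1% on average), and Bak1-202, the coding transcript whose BH3 core is shown above, was at 0 in 4 of 12 libraries and at most 37.9%. Bbc3-201 held 34.2% to 100% of Bbc3, and a transcript annotated as a retained intron held up to 57.7%, the highest in Aβ0/0 mTEC replicate 3. The split of Bcl2l11, which had 111 to 665 estimated counts per library, varied most. The share of Bcl2l11-205 went from 2.97% to 90.7%, that of Bcl2l11-202 from 0% to 83.9% and that of the non-coding Bcl2l11-206 from 0% to 40.9%.

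**Figure D5:**
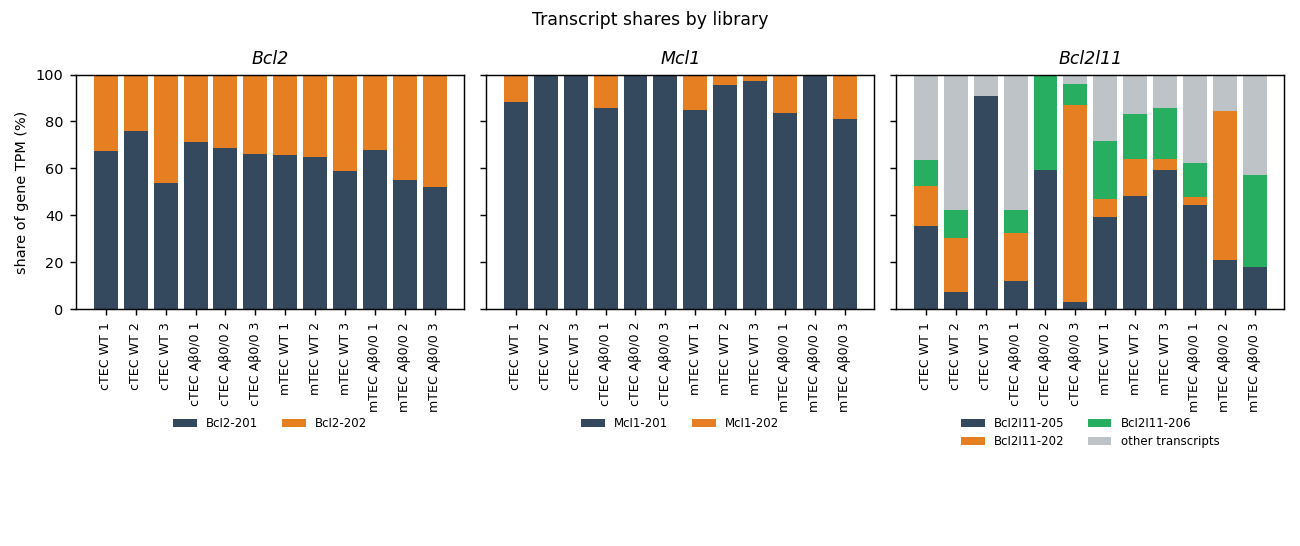
Share of each gene's TPM (in percent, stacked to the total) held by single transcripts of Bcl2, Mcl1 and Bcl2l11 in each of the 12 libraries. Bcl2 keeps 52.2% to 75.8% in Bcl2-201 throughout, Mcl1-202 appears above 10% in replicate 1 of every group and in Aβ0/0 mTEC replicate 3, and the Bcl2l11 shares change from library to library.

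Genes whose rlog values over the 12 libraries were closest to those of a called member, each centred on its own mean, were searched among 18030 genes. For Bcl2 these were Hoxa3, Ccdc68 and Cdc42ep5, with mean absolute differences of 0.22, 0.24 and 0.25 on the log2 scale, against a mean absolute deviation of 0.63 of Bcl2 itself. Hoxa3 was 17.4, 18.3, 4.1 and 12.9 CPM on average in WT cTEC, Aβ0/0 cTEC, WT mTEC and Aβ0/0 mTEC, lowest in WT mTEC as Bcl2 was. For Bbc3 they were Epb41l4b, Pak4 and Gm32742 (0.14, 0.16 and 0.16, against 0.36), and Pak4 was 31.4, 33.1, 64.5 and 40.2 CPM in the same order. For Pmaip1 they were Oit1, Abcc8 and Tff2 (0.32, 0.34 and 0.41, against 1.42), all of them near 0 to 11.4 CPM on average in cTEC and 6.1 to 76.1 CPM in mTEC. For Bid they were Pus7, Clock and Secisbp2l (0.10, 0.14 and 0.14, against 0.34). These are similarities of pattern over libraries that share groups, given without a test.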

How the data were processed

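The authors amplified poly-A RNA of sorted TEC (SMART-Seq v4), read it as Illumina paired ends and, per the labels, used bcl2fastq 2.20.0, Trim Galore, kallisto 0.43 and DESeq2 with mm10. The deposited expected counts and TPM are the authors' kallisto estimates for 109282 transcripts, and the deposited log2 values are DESeq2 rlog values of all 12 libraries. Strand settings were not given in the sources used here.

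Expected counts of the 107987 transcripts found in GENCODE M21 were summed over 34547 genes and rounded, and TPM were summed unrounded. Transcripts without a match held 0.450% to 0.512% of the counts. Libraries held 21.7 to 36.1 M counts. Genes were tested with edgeR 4.0.16 (robust quasi-likelihood, TMM, filterByExpr) in R 4.3.3 on the 6 libraries compared, or on all 12 for the interaction, with Benjamini-Hochberg adjustment over all genes tested and a threshold of 0.05. SE are the absolute log2 fold change over the square root of F. Alternatives were RLE factors, no filter, a mean of at least 10 counts, DESeq2 1.42.0, limma 3.58.1 on rlog values, all 12 libraries in one fit, the replicate number as a block, and leaving out each library. Replicates are separate pools of mice.

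The cTEC and mTEC libraries with one genotype and number were taken as one pool, since the study lists both yields under one replicate number. The correlations of their deviations from the group means were 0.284, 0.0142 and 0.132 in WT and 0.286, 0.135 and 0.0393 in Aβ0/0 mice. Those between genotypes were 0.320, 0.139 and 0.0703 in mTEC and 0.300, -0.104 and 0.0197 in cTEC, so the pairing rests on the study's listing, and a shared pool cannot be told apart from a sorting session shared by both genotypes. The members and lists were chosen with earlier results of these data known. Named were the 10 genes, the up to 3 largest called differences per list and comparison, transcripts with at least 10% of a gene's TPM on average (Mcl1-202 was added after its values were seen), and the 3 genes most alike each called member. The list of the apoptosome and caspases is counted in the totals over the 6 lists, and its single genes are not reported here. Sequences and the exonic overlaps were read from GENCODE M21 (Python 3.11.15, pandas 2.3.3). Annotated exons of Bcl2, Bak1, Bad and Bax also overlap other genes, over 6.09%, 18.2%, 20.5% and 12.2% of their exonic bases. Bak1 also overlaps another annotated gene entry over 7.35%. The gene that overlaps Bax lies on the same strand as Bax.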

Additional observations from a re-analysis of the deposited data

How the results depend on the processing

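Of the 10 genes, edgeR's calls in WT became 2 on all 12 libraries and 2 to 5 with a library left out. In Aβ0/0 mice they became 2 with DESeq2, 1 on all 12 libraries and 1 with limma. Between genotypes in mTEC they became 1 with DESeq2 and 0 to 1 with a library left out, and for the interaction 1 with DESeq2. Over all genes, calls between genotypes in mTEC went from 1054 to 27 without a filter, 11 with a mean count filter, 2440 with DESeq2, 20 on all 12 libraries, 0 with the replicate block and 0 to 2377 with a library left out. In cTEC they went from 3 to 7, 121 with DESeq2, 16 on all 12 libraries, 0 with the replicate block, 7 with limma and 1 to 3 with a library left out. Between subsets they went to 2760 on all 12 libraries and 3395 to 7572 with a library left out in WT, and in Aβ0/0 mice to 2760 with DESeq2, 1819 on all 12 libraries, 1451 with limma and 338 to 456 with a library left out. For the interaction they went from 2 to 409, 0 with the replicate block, 974 with limma and 1 to 18 with a library left out. In the lists of the death pathway, calls between genotypes in mTEC became 9 with DESeq2, 3 with limma and 0 to 1 with a library left out. Between subsets in Aβ0/0 mice they became 13 with DESeq2, 12 on all 12 libraries and 9 with limma, and for the interaction 1 with limma. The replicate block changed no call of the 10 genes other than that of Bid. In genotype comparisons the numbers mark no shared pool. The study lists WT and Aβ0/0 yields under the same replicate number, and whether this marks a shared sorting session was not tested.

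Directions turned only where the main log2 fold change was smaller than its SE. With limma, Bid and Bad were 0.072 and 0.030 between genotypes in mTEC, Bax and Pmaip1 -0.0024 and 0.0026 in cTEC, Bak1 0.17 between subsets in WT and Bad -0.0050 in Aβ0/0 mice. With the replicate block, Bcl2l11 and Pmaip1 were 0.19 and 0.14 between genotypes in cTEC and Bak1 0.78 between subsets in WT. Without a filter, Mcl1 was -0.018 in WT. With a library left out, the ranges that crossed 0 in mTEC were -0.013 to 0.11 (Bax), -0.23 to 0.0073 (Bak1), -0.51 to 0.18 (Bid) and -0.15 to 0.10 (Bad). Those in cTEC were -0.28 to 0.26 (Mcl1), -0.11 to 0.11 (Bcl2l1), -0.46 to 0.53 (Bcl2l11), -0.22 to 0.24 (Bax), -0.75 to 1.34 (Bak1) and -0.47 to 0.76 (Pmaip1). Between subsets they were -0.26 to 0.23 (Mcl1) and -0.54 to 1.64 (Bak1) in WT, and -0.0091 to 0.21 (Bcl2l1), -0.36 to 0.058 (Bbc3) and -0.011 to 0.15 (Bad) in Aβ0/0 mice. For the interaction they were -0.061 to 0.49 (Mcl1), -0.83 to 0.16 (Bcl2l11), -0.15 to 0.31 (Bax), -1.45 to 0.63 (Bak1) and -0.20 to 1.58 (Pmaip1). The cause was not tested. Bak1 had 27 to 284 estimated counts per library, and Pmaip1 had 37 to 176 in WT cTEC.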
